A study of Mus musculus with 4 samples.

Results

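The run of Deaf1 peaks with the most members in C2C12 mouse myoblasts lay on chromosome 10 from 122794610 to 123005600 (mm10), across the downstream part of the gene Ppm1h, the stretch after it and the near end of Mon2. This block was chosen by a measured value, the number of peaks in replicate 2: no other run of that library's peaks with gaps of at most 20 kb held as many. Its peak number is therefore given as a description, with no test. Replicate 1 had 62 of its 1860 peaks there (3.33%) and replicate 2 had 156 of its 3126 (4.99%), and 34 of the 1550 regions of the authors' combined list fell in it. Each peak was given to Ppm1h, to Mon2 or to the stretch between them by its summit, the base with the most stacked fragments.

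Deaf1 is a transcription factor whose SAND domain is known to bind DNA with TTCG at the core. Ppm1h encodes a phosphatase of the PPM family that removes phosphate from Rab GTPases phosphorylated by the kinase LRRK2. Mon2 encodes a Golgi and endosome protein related to the large activators of Arf GTPases, and it works in the sorting of cargo between these compartments. The microRNA gene Mirlet7i lies between them and makes let-7i, one of the let-7 family that represses messenger RNAs through pairing with the seed at the microRNA's 5′ end.

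The study used C2C12, an established line of mouse muscle precursor cells, with no genetic change or treatment stated, in 2 libraries immunoprecipitated with an antibody to Deaf1 (ChIP-seq) and 2 input libraries without antibody. The labels do not say that the replicates came from separate cultures, and with 1 group of 2 libraries no test over samples was possible. The labels describe fixation with formaldehyde and also call the assay native ChIP-seq, a term for chromatin that was not fixed, and which of these holds is not known here. Values of the inputs themselves were not analysed here, and they enter only through the local background in each peak's deposited values. Only the peak lists were read, so stretches without a peak have no value.

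The annotated features that the peaks touch are shown first as sequence, from RefSeq on GRCm38.p6. The let-7i hairpin, at 122985640 to 122985724 on the minus strand, lay under a peak of both replicates. It is printed with its mature arms in capitals, and the arms follow with their seed, bases 2 to 8, in capitals.
Mirlet7i hairpin: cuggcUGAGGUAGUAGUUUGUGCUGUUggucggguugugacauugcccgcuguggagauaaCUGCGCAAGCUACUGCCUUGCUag
let-7i-5p: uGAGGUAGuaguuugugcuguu
let-7i-3p: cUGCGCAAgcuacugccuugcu
The seed of let-7i-5p was shared by 11 of 1679 mature microRNAs in the table, among them let-7a-5p, let-7g-5p and miR-98-5p. Of 1005 hairpins in the table, 4 lay under a peak of replicate 1 and 7 under a peak of replicate 2, and the 4 of replicate 1 were among the 7.

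The 3 annotated promoters of 300 bases at the locus, each around a start of transcription, are shown because 2 of them met peaks and the one of Ppm1h did not. Capitals mark the letters TTCG on either strand, CGAA being its reverse complement.
Gm51817 promoter, chr10:122896688-122896987, minus strand: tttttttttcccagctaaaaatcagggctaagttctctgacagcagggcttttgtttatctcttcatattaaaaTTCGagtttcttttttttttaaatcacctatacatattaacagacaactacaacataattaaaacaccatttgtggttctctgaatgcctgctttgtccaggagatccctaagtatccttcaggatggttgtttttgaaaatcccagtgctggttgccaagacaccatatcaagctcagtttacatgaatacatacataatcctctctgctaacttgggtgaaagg
Gm51818 promoter, chr10:122919046-122919345, minus strand: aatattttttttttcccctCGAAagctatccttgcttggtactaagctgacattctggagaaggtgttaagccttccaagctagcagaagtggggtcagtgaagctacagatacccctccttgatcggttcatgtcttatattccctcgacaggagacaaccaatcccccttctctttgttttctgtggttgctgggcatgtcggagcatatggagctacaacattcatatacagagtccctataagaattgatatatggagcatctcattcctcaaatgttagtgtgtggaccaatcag
Ppm1h promoter, chr10:122678512-122678811, plus strand: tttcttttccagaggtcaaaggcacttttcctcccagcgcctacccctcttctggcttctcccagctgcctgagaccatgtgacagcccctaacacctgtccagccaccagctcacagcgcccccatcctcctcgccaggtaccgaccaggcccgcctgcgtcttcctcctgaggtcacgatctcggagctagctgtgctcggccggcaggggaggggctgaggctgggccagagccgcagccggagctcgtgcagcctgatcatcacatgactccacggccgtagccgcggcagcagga
Gm51817 and Gm51818 are long non-coding RNA genes nested in the span of Ppm1h. Each of their promoters held 1 match to TTCG and the promoter of Ppm1h held 0. The match of Gm51817 lay outside the peaks that met its promoter. That of Gm51818, read along the minus strand, lay under the peak that met its promoter. Of the 32851 promoters of this length in the table, 14682 (44.7%) held at least 1 match, so a match is common. Mon2 was not matched in this table.

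Most of the block belonged to Ppm1h. Its share was 151.186 kb (71.7% of the block), the stretch between the genes took 46.264 kb (21.9%) and Mon2 took 13.541 kb (6.42%). These pieces are 56.3% of the whole span of Ppm1h (122677428 to 122945795) and 16.0% of that of Mon2 (122992060 to 123076505). The gene table gives 1 span per gene without exons, so peaks inside a span could not be called exonic or intronic.

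Within the block, peaks were densest over its part of Ppm1h in both libraries. Ppm1h held 48 peaks of replicate 1 and 127 of replicate 2, which is 3.17 and 8.40 per 10 kb. The stretch between held 13 and 25 peaks, or 2.81 and 5.40 per 10 kb. Mon2 held 1 and 4 peaks, or 0.738 and 2.95 per 10 kb. The density over Ppm1h was 4.30 times that over the block's part of Mon2 in replicate 1 and 2.84 times in replicate 2, a mean ratio of 3.57 ± 1.03 (SD, n = 2). Against the stretch between, the ratio was 1.34 ± 0.30 (SD, n = 2), so these neighbours lay closer together. With 1 peak of Mon2 in replicate 1, the ratio to Mon2 rests on very few peaks, and the rule ends its part of Mon2 at the last peak. Over the whole gene spans, an alternative chosen after seeing the data, the ratio was 15.1 and 7.99, a mean of 11.5 ± 5.03 (SD, n = 2). The rule likewise starts its part of Ppm1h at the first peak of replicate 2. Over its whole span Ppm1h had 1.79 and 4.73 summits per 10 kb, below the 2.81 and 5.40 of the stretch between. The order of Ppm1h and that stretch thus depends on where the rule cuts the gene.

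Replicate 2 had 2.52 times as many peaks as replicate 1 in the block and 1.65 times as many outside it. The rule ran on replicate 2, so a higher number there is part of how the block was found. The excess of replicate 2 was 2.65 times over Ppm1h, 1.92 times in the stretch between and 4 times over Mon2.

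**Figure D1:**
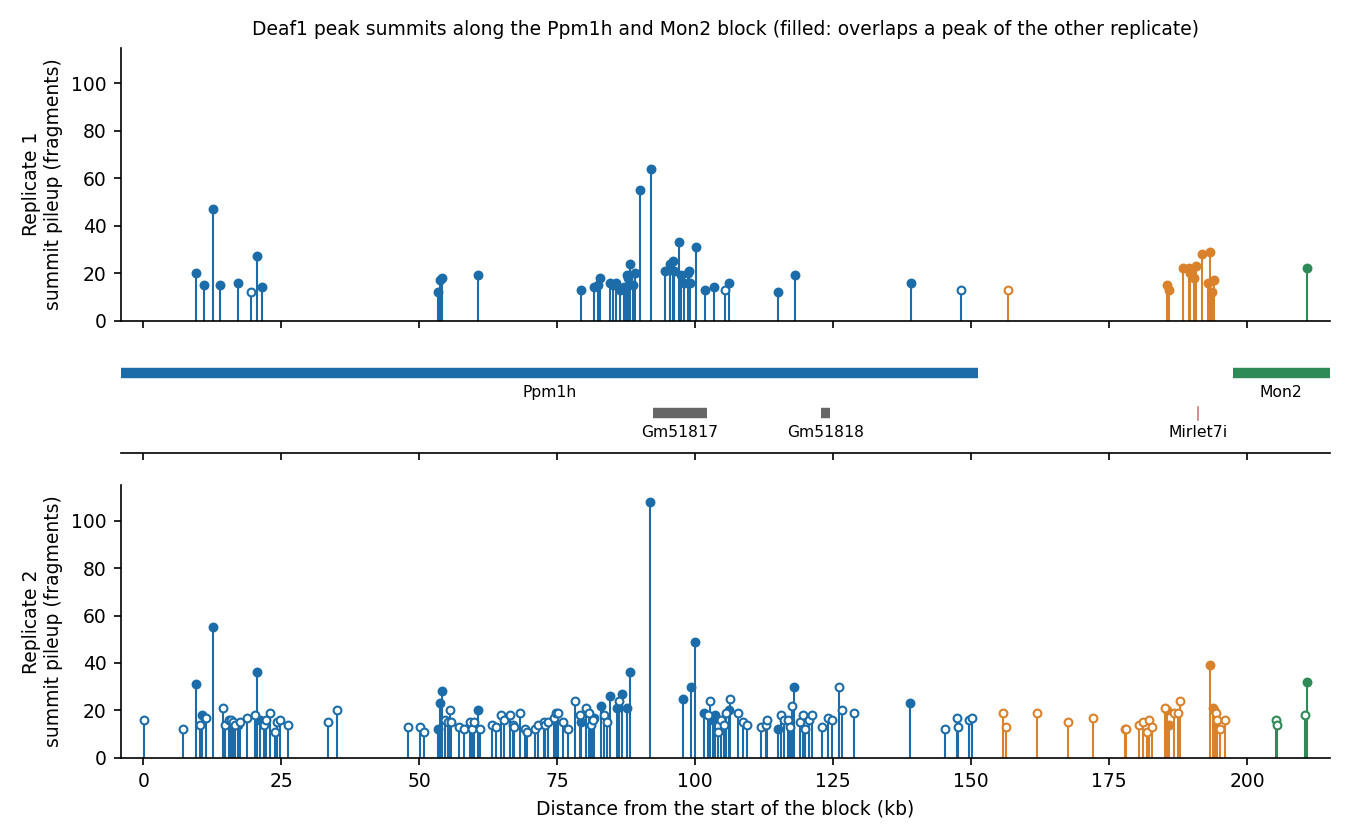
Summit pileup (fragments) of each peak against distance from the start of the block (kb), replicate 1 above and replicate 2 below, with gene spans in the middle and filled points for peaks that overlap a peak of the other replicate. Colours mark Ppm1h, the stretch between and Mon2. The highest summit of both libraries, 64 and 108 fragments, stands inside Ppm1h near the end of Gm51817, and most of the 121 open points of replicate 2 are low.

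The nearest other peaks lay much farther off than the gaps inside the block, on both sides in replicate 1 and on the left in replicate 2. Gaps between peaks elsewhere were not computed, so the distances to other peaks do not set the block apart. Replicate 1 had its nearest other peaks 5011 kb to the left and 4064.5 kb to the right, and its longest gap inside the block was 31.8 kb. Replicate 2 had them 1168 kb to the left and 70.8 kb to the right, and its longest gap inside was 12.6 kb. For replicate 2 the rule allows no gap over 20 kb inside the block and requires a longer one at its edges. It sets no such limit for replicate 1. The peak just outside the rule on the right is the other contact with Mon2: it spanned 123076367 to 123076581, had 20 fragments at its summit and a fold enrichment of 6.76, and its summit lay 11 bp from the far end of the Mon2 span. Replicate 1 had no peak there. The last peak inside the rule, at 123005253 to 123005600, had 32 fragments.

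The upstream end of Ppm1h was without peaks. The first peak of replicate 1 began 126.6 kb after the start of its span and that of replicate 2 began 117.2 kb after it. From the start of transcription in the promoter table the nearest summits were 125.3 kb and 115.9 kb away. The flanking protein-coding genes, Avpr1a on the left (a vasopressin receptor) and Usp15 on the right (a deubiquitinase), held 0 summits in either library.

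Inside the block, neighbouring summits were usually less than 1 kb apart. The median gap between neighbouring summits was 801 bp in replicate 1 (interquartile range 359 to 2051) and 664 bp in replicate 2 (398 to 1244.5). Over Ppm1h the medians were 801 and 664 bp, and in the stretch between 562.5 and 596.5 bp. The gene and the stretch after it thus had similar fine spacing, and the longest gaps of 32.1 kb and 12.8 kb both fell within Ppm1h. Gaps over 10 kb numbered 5 of 61 in replicate 1 and 2 of 155 in replicate 2, and the rule bounds the gaps of replicate 2 alone.

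The peaks formed a few crowded runs. Joining peaks with at most 2 kb between them gave 15 runs in replicate 1, and 2 of these with at least 10 peaks held 41 of the 62 peaks (66.1%). One was 31 peaks over 24.6 kb of Ppm1h (122876240 to 122900802), the other 10 peaks over 5.70 kb around Mirlet7i (122983012 to 122988710). Replicate 2 gave 20 runs, and 4 with at least 10 peaks held 126 of 156 (80.8%). Its longest held 69 peaks over 56.1 kb (122847984 to 122904047) and took in the whole of the 31-peak run of replicate 1. Another held 13 peaks over 10.9 kb (122979679 to 122990624) and took in the run around Mirlet7i. The other 2 were within Ppm1h, 24 peaks over 16.8 kb (122804047 to 122820857) and 20 peaks over 14.7 kb (122906488 to 122921227). In replicate 1 the whole first of these stretches had 8 peaks in 3 runs, and the second had 2 single peaks.

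Windows of 10 kb along the block showed the same layout. Of the 22 windows, 6 had no summit in replicate 1 and 0 were empty in replicate 2. The rule joins peaks of replicate 2 with gaps of at most 20 kb, so it favours few empty windows in that library alone. The fullest window held 15 summits in each library, 80 kb from the block's start in replicate 1 and 100 kb from it in replicate 2. The window at 90 kb had 11 summits in replicate 1 and 3 in replicate 2, yet peaks covered 7392 bp of it in replicate 1 and 9221 bp in replicate 2. A lower count there went with wider peaks, not with less covered sequence.

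**Figure D2:**
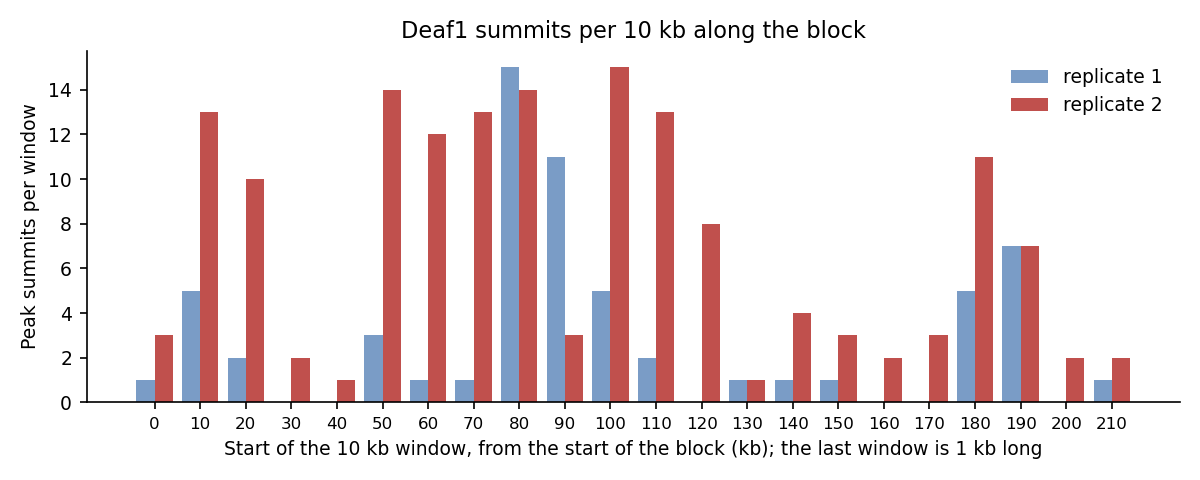
Number of peak summits in each 10 kb window from the start of the block, with 1 bar per library; the last window is 1 kb long. Replicate 2 is higher or equal in 20 of the 22 windows, and replicate 1 is higher at 80 and 90 kb.

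Peaks covered 21.027 kb of the block in replicate 1 (9.97%) and 52.448 kb in replicate 2 (24.9%). Of the bases covered in replicate 1, 93.9% were also covered in replicate 2, and 37.7% the other way. The share covered was 10.7% and 28.0% over Ppm1h, 10.2% and 20.4% in the stretch between, and 1.29% and 4.74% over Mon2.

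The strength of a peak is given as its pileup, the number of ChIP fragments stacked at the summit, recovered from the deposited fold enrichment and −log10 p of each peak, with 95% exact Poisson intervals that cover counting error only. The median peak of the block was low, with 17 fragments in replicate 1 and 16 in replicate 2, against 22 and 24 outside it. Ppm1h had medians of 16 and 16, the stretch between 18 and 16, and Mon2 22 and 17. The median over Ppm1h was 0.834 ± 0.151 (SD, n = 2) of that over Mon2, below 1 in both libraries but resting on 1 and 4 peaks of Mon2. By the deposited fold enrichment the ratio turned to 1.08, so neither gene had reliably the higher peaks.

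Few peaks of the block were high. A pileup of at least 30 fragments was reached by 5 of 62 peaks in replicate 1 (8.06%, against 25.1% outside) and by 11 of 156 in replicate 2 (7.05%, against 32.4% outside). Below 20 fragments were 40 peaks (64.5%, against 34.5%) and 119 peaks (76.3%, against 33.4%). The median fold enrichment, ChIP over local background, was 5.74 and 4.89 in the block and 6.88 and 6.48 outside. The local background recovered at the summits had medians of 2.05 and 2.36 fragments in the block and 1.92 and 2.32 outside, and it reached 4.39 and 5.80 in the block and 45.7 and 56.1 outside. The genome-wide floor of this background was 1.80 fragments in replicate 1 and 2.09 in replicate 2. Its part in the density was not tested.

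The highest summit of the locus lay inside Ppm1h in both libraries. In replicate 1 it was at 122886628 with 64 fragments (49.3 to 81.7) and a fold enrichment of 20.1, and ranked 55 of 1860. In replicate 2 it was at 122886424, 204 bp away, with 108 fragments (88.6 to 130) and a fold of 27.9, and ranked 28 of 3126. The mean was 86 ± 31.1 fragments (SD, n = 2), and the counting intervals of the libraries do not overlap. Pileups were not scaled between the libraries. Replicate 2 was also higher at 91.6% of pairs of overlapping peaks outside the block, with a median ratio of 1.31. A higher value in replicate 2 is thus not a difference of this site alone. The peak of replicate 2 ran from 122883226 to 122892153, and its 8928 bp made it the widest of that list. Within it replicate 1 had 10 separate peaks, with summits of 15, 20, 55, 64, 21, 24, 25, 21, 33 and 19 fragments from left to right, which covered 84.8% of its length. What replicate 2 gave as 1 peak was thus 10 peaks in replicate 1, with most of the same bases covered.

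The second pair of Ppm1h peaks was higher in replicate 2 by less than counting error. Its summits stood 7 bp apart at 122807246 and 122807253. Replicate 1 had 47 fragments (34.5 to 62.5) and a fold of 13.2, and replicate 2 had 55 fragments (41.4 to 71.6) and a fold of 11.4, a mean of 51 ± 5.66 fragments (SD, n = 2). The third, at 122894772 and 122894655 and within Gm51817, had 31 fragments (21.1 to 44.0) and a fold of 8.80 in replicate 1 and 49 fragments (36.3 to 64.8) and a fold of 15.4 in replicate 2. Its summits stood 117 bp apart, and the intervals of the pileups overlap.

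Of the nested non-coding RNAs, Gm51817 held summits of both libraries and Gm51818 held summits of replicate 2 alone. Gm51817 (122886979 to 122896737) held 12 summits of replicate 1 and 4 of replicate 2, and its left part lay under the widest peak of replicate 2. At its promoter replicate 1 had 0 peaks, and replicate 2 had 2 peaks of 19 and 18 fragments that covered 78 of the 300 bases. The summits nearest to its start were 347 bp away in replicate 1 and 274 bp in replicate 2. Gm51818 (122917423 to 122919095) held 0 summits of replicate 1 and 2 of replicate 2, and 1 peak of replicate 2 with 16 fragments covered 56 bases of its promoter. Peaks at both promoters were thus called in replicate 2 alone and were weak. A stretch without a peak has no value, so the libraries could not be compared there.

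Replicate 2 also had peaks over Ppm1h with no partner in replicate 1. The highest was at 122920184 to 122920749, with 30 fragments (20.2 to 42.8) and a fold enrichment of 7.46. The next was at 122900887 to 122901250, with 25 fragments (16.2 to 36.9) and a fold of 6.70. The 4 peaks of replicate 1 without a partner had 12, 13, 13 and 13 fragments, 3 of them over Ppm1h and 1 in the stretch between.

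Between the genes, the longest run of peaks in both libraries took in Mirlet7i, with the highest summits over 2 kb from the hairpin. The peak of replicate 1 over the hairpin ran from 122985599 to 122987278, with 28 fragments (18.6 to 40.5), a fold enrichment of 9.78 and its summit 756 bp away. The nearest summit of replicate 1 belonged to a neighbouring peak, 327 bp away at 122985313, with 23 fragments. In replicate 2 the hairpin lay under a peak of 5345 bp from 122982811 to 122988155, with 39 fragments (27.7 to 53.3), a fold of 5.88 and its summit 2210 bp away. That peak held 8 peaks of replicate 1, with 22, 22, 20, 18, 23, 28, 16 and 29 fragments, which covered 77.8% of it. The summit of replicate 1 closest to that of replicate 2 was at 122987891, 43 bp away, with 29 fragments (19.4 to 41.6), a fold of 5.56 and a background of 4.39 fragments, where replicate 2 had a background of 5.80. The intervals of the pileups overlap at this place. No summit of either library fell on the hairpin itself.

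Mon2 had 1 place marked in both libraries. Its summits were at 123005437 with 22 fragments (13.8 to 33.3) and a fold of 5.10 in replicate 1, and at 123005401 with 32 fragments (21.9 to 45.2) and a fold of 6.78 in replicate 2. They stood 36 bp apart, and the mean was 27 ± 7.07 fragments (SD, n = 2), with overlapping intervals. The other 3 peaks of replicate 2 in the block's part of Mon2, with 16, 14 and 18 fragments, had no partner in replicate 1.

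Summits of the libraries lay farther apart in the block than elsewhere. Peaks were paired when each was the other's overlapping partner with the highest fold enrichment, which gave 34 pairs in the block (28 over Ppm1h, 5 between and 1 over Mon2) and 1517 outside. The median distance between the summits of a pair was 57.5 bp (interquartile range 25 to 168, at most 1454) in the block and 12 bp outside. Summits within 100 bp of each other made up 21 of 34 pairs (61.8%) in the block and 94.5% outside. By gene the medians were 51.5 bp over Ppm1h, 70 bp in the stretch between and 36 bp for the single pair of Mon2. Choosing the partner by pileup, added after seeing the data, exchanged the partner in 2 of the 34 pairs, lowered the longest distance to 451 bp and gave medians of 51.5 bp in the block and 12 bp outside. No test of this difference was made, since pairs of 1 locus are not replicates.

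The difference was smaller among narrow pairs and among weak pairs, which are alternatives chosen after seeing the data. Among pairs in which neither peak was wider than 300 bp, the median was 26 bp in the block (13 pairs, 12 of them within 100 bp) and 11 bp outside. Among pairs with fewer than 20 fragments in replicate 1 it was 53 bp in the block (25 pairs) and 20 bp outside. Taking the nearest summit of replicate 2 for every peak of replicate 1 gave 213.5 bp in the block and 15 bp outside. The distance in the block stayed above that outside in each of these settings.

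**Figure D3:**
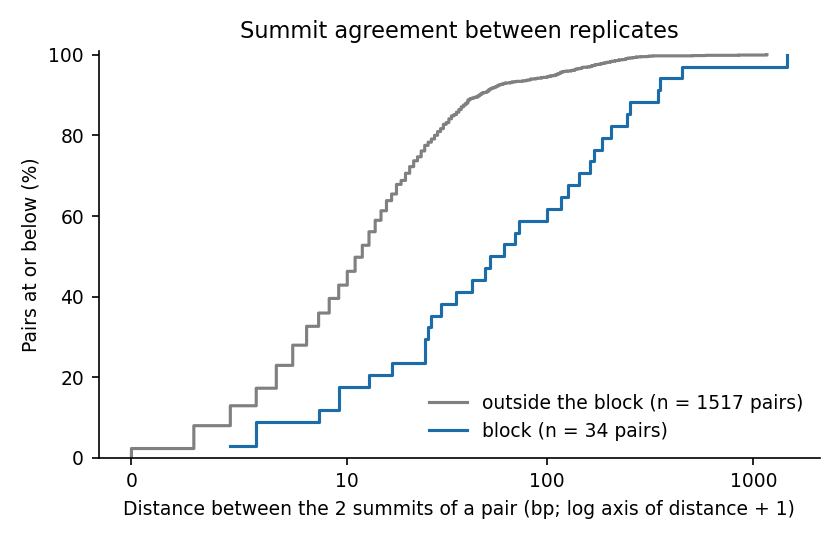
Cumulative share of pairs (%) against the distance between the summits of a pair (bp, log axis of distance + 1), for the block and for the rest of the lists. The line of the block lies to the right, with medians of 57.5 and 12 bp.

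In strength the pairs of the block behaved much like those elsewhere. The pileup was higher in replicate 2 at 31 of 34 pairs (91.2%, against 91.6% outside), with a median ratio of 1.33 against 1.31. The ratio of fold enrichments was 1.04 in the block and 1.14 outside, beside a ratio of backgrounds of 1.30 and 1.16. Across the 34 pairs the log2 pileups gave r = 0.92 (Pearson) and rho = 0.84 (Spearman), a description over peaks that share the same 2 libraries, and outside the values were 0.90 and 0.85.

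**Figure D4:**
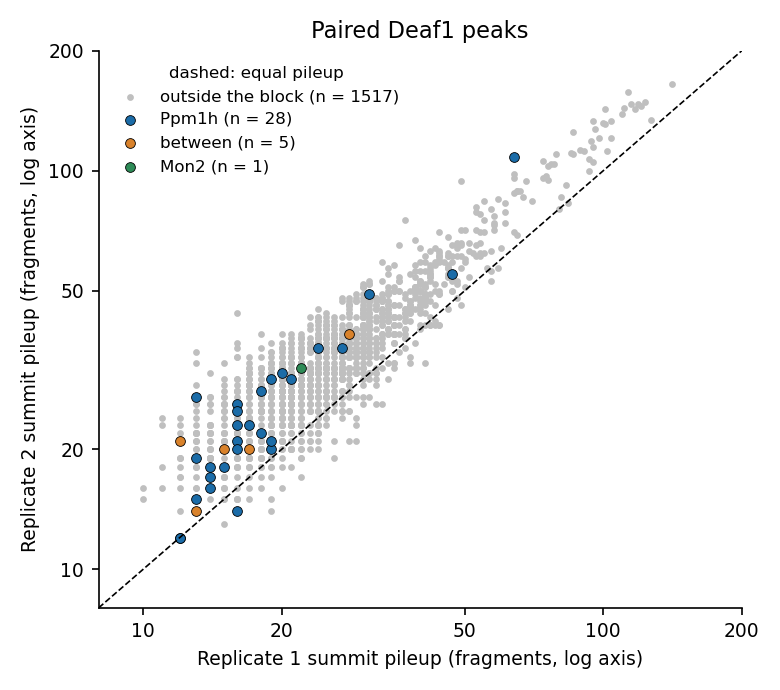
Summit pileup of replicate 2 against that of replicate 1 (fragments, both axes logarithmic) for each pair, grey outside the block and coloured by gene inside it, with a dashed line at equal pileup. Of the 34 pairs of the block, 31 lie above the line, and most sit at the low end.

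Nearly every peak of replicate 1 in the block was repeated, and most of those of replicate 2 were not. By an overlap of at least 1 bp, 58 of 62 peaks of replicate 1 (93.5%) met a peak of replicate 2, against 92.4% of its whole list, which is near the background. Seen from replicate 2, 35 of 156 (22.4%) met a peak of replicate 1, against 50.4% of its whole list. By gene, 45 of 48 and 29 of 127 peaks were shared over Ppm1h, 12 of 13 and 5 of 25 in the stretch between, and 1 of 1 and 1 of 4 over Mon2. The share of replicate 2 was below 50.4% in each of the 3 stretches, with only 4 peaks over Mon2. The rule chose the block by its number of replicate 2 peaks, so a low share there is partly how the block was found. The wide peaks of replicate 2 that held 10 and 8 peaks of replicate 1 also count as 1 shared peak each.

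Pileup went with this share. In replicate 2 the shared peaks of the block had a median of 21 fragments and the 121 unshared ones 16. At 30 fragments or more, 10 of 11 peaks were shared (90.9%, against 91.9% outside), and at 20 to 29 fragments 14 of 26 (53.8%, against 52.8%). At 15 to 19 fragments the share was 7 of 72 (9.72%, against 15.5%) and at 10 to 14 it was 4 of 47 (8.51%, against 2.61%). Over all peaks with 20 fragments or more, 24 of 37 peaks were shared in the block (64.9%) and 71.8% outside, where a larger share of them had at least 30 fragments. The unshared peaks of replicate 2 had a median distance of 1874 bp to the nearest summit of replicate 1, and 27 of them were more than 5 kb from one.

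**Figure D5:**
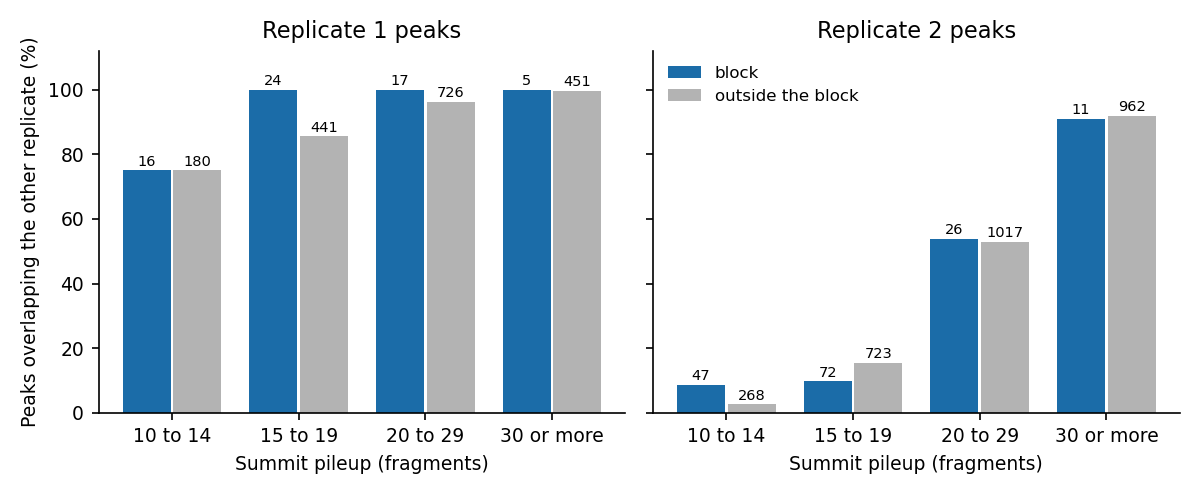
Share of peaks that overlap a peak of the other replicate (%) by summit pileup (fragments), with the number of peaks above each bar, for the block and outside it. In replicate 2 the bars of the block and of the rest stand at 53.8% and 52.8% for 20 to 29 fragments and at 90.9% and 91.9% for 30 or more.

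Stricter matching separated the block from the rest. A reciprocal overlap of at least 50% left 15 shared peaks, 24.2% of replicate 1 and 9.62% of replicate 2, against 69.7% and 42.2% outside. A summit of the other library within 100 bp was found for 22 peaks, 35.5% and 14.1%, against 80.6% and 48.8% outside. So nearly all bases covered in replicate 1 were covered again in replicate 2, while the outlines of single peaks and their summits repeated less than elsewhere. Peaks of the block were also weaker and wider, and these shares were not matched for strength or width. Among pairs with neither peak wider than 300 bp, 92.3% in the block and 97.8% outside had summits within 100 bp.

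In the authors' combined list the block ranked low. It held 34 regions, 28 over Ppm1h, 5 in the stretch between and 1 over Mon2. The score of this list follows the irreproducible discovery rate (IDR). The IDR is the estimated share of regions that do not repeat among those ranked at least as high, and 540 stands for an IDR of 0.05. A score of at least 540 was reached by 2 regions (5.88%), against 39.2% of the whole list. The lowest score, 121, was held by 22 regions (64.7%, against 23.4% outside), and the median score was 121 against 423.5. Of the 34 regions, 25 came from 1 peak in each library, and the median width was 412 bp against 194 bp outside.

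Both regions past 540 lay over Ppm1h. One, at 122894359 to 122895922, is the third pair above and had a score of 736 (IDR 0.0169). The other, at 122815059 to 122815635, had 27 and 36 fragments, summits 2 bp apart and a score of 609 (IDR 0.0341). The region with the highest summits, at 122883226 to 122892153, had a score of 194 (IDR 0.341), so score and height did not go together there. The Mirlet7i region scored 247 and the Mon2 region 335.

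Ppm1h held the most summits of all protein-coding genes in both libraries. Counted in the whole gene span, Ppm1h held 48 and 127, and the next by the mean of both libraries were Extl3 with 17 and 27, Myl4 with 12 and 15, Ski with 12 and 13, Deaf1 itself with 8 and 12, and Mark2 with 4 and 15. Per 10 kb of span the order changed. Ppm1h had 1.79 and 4.73, Extl3 1.74 and 2.76, Myl4 2.91 and 3.64, Ski 1.75 and 1.90, Deaf1 1.92 and 2.88, and Mark2 0.602 and 2.26. Among these 6 genes, picked by their number of summits and not ranked per length against all genes, Ppm1h was highest per length in replicate 2, which chose it. In replicate 1 Myl4 and Deaf1 were above it. Mon2 held 1 and 5 summits and ranked 40.

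The share of replicate 2 summits that were shared was 22.8% at Ppm1h, 44.4% at Extl3, 26.7% at Myl4, 30.8% at Ski, 41.7% at Deaf1 and 6.67% at Mark2. All 6 lay below the 50.4% of the whole list, so a low share was common to these genes. They were chosen by their number of summits.

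Genes of the same pathways had peaks in shares near that of all protein-coding genes. Of 33 genes of PPM phosphatases, LRRK kinases and their Rab substrates, 2 (6.06%) had a summit of both libraries in the span or within 1 kb, against 7.74% of 21887 protein-coding genes, and of 18 relatives and partners of Mon2, 1 (5.56%) had one. Both shares are near the background. Ppm1l, a phosphatase of stress kinase signalling, had 54 fragments (40.6 to 70.5) and a fold of 12.2 in replicate 1 and 78 (61.7 to 97.3) and a fold of 21.4 in replicate 2, with its summits 78 and 76 bp from an end of its span. Ppm1g, a nuclear phosphatase of the same family, had 19 and 30 fragments at 355 and 359 bp from an end. Ppm1d had a peak in replicate 2 with 22 fragments. Atp9b, a Golgi ATPase of the lipid flippase family, had 16 and 25 fragments at 4 and 1 bp from an end. At Ppm1l, Ppm1g and Atp9b the highest summit sat within 1 kb of an end of the span, whereas the highest summit of Ppm1h lay far inside it. These genes were picked for a summit in the span or within 1 kb. The same share over all genes with peaks was not computed, so the contrast does not set Ppm1h apart.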

How the data were processed

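Peaks of 2 Deaf1 ChIP libraries were read from the authors' 2 peak lists and their combined list. Per the submitters' processing notes the tools were FastQC 0.11.8, BWA 0.7.17-r1198 and MACS2 2.1.2 and the build was mm10. Settings, treatment of duplicate reads and the IDR program are not given in the sources used here. The deposited fold enrichment is the ratio of the ChIP pileup to the local background, as the authors' caller wrote it. The deposited p and q are −log10 values from the authors' peak caller. The deposited score of each combined region covers both libraries at once and has no error, and 6 unnamed columns of that list with values per sample were not used.

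For every peak exactly 1 whole-number pileup fitted fold = (pileup + 1)/(background + 1) and the Poisson p, to within 5.1e-05 in −log10 p. On simulated data 100% of 1999 pileups were recovered. Peaks were called per library, per the peak names in the deposited lists. Gene spans and sequences are RefSeq's on GRCm38.p6, and coordinates are 1-based. Python 3.11.15 with scipy 1.17.1 was used.

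Named genes were Ppm1h, Mon2, their protein-coding neighbours, the 5 other genes with the most summits in their span, and listed genes with a summit of both libraries. Named peaks were the 3 highest pairs per gene and the 2 highest of replicate 2 without a partner. Other named peaks, and Ppm1d, were chosen after their values were seen. The members, gene lists and alternatives were chosen with earlier results of these data known. Alternatives were a −log10 q of at least 5, stricter matching, merged summits, fold in place of pileup, pairing by pileup, whole gene spans and each library alone.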

Additional observations from a re-analysis of the deposited data

How the results depend on the processing

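A −log10 q of at least 5 left 81 peaks of replicate 2 in the block, 66 over Ppm1h, 13 in the stretch between and 2 over Mon2, widened the median spacing of replicate 2 to 1169.5 bp and shortened the median summit distance to 36 bp. The mean of 109 peaks in the block ran from 62 to 156 with 1 library left out. Reciprocal overlap of 50% lowered the shared peaks to 24.2% and 9.62%, and a summit within 100 bp lowered them to 35.5% and 14.1%. The strength ratio of Ppm1h to Mon2 was 1.08 by fold enrichment, on the other side of 1 from 0.834. A score of at least 540 left 2 combined regions. Alternatives chosen after seeing the data gave 64.9% shared peaks in replicate 2 at 20 fragments or more, a density ratio of Ppm1h to Mon2 of 11.5 over whole spans, a summit distance of 26 bp in the block for narrow pairs and 20 bp outside for weak ones, and the nearest summit, which was planned, gave 213.5 bp. The other 33 recomputed values stayed within 1.5 times or 1 SD of those reported. For the density and strength ratios, the value of either library alone always lies within 1 SD of the mean of 2. Those values could not have moved, so the count of 33 does not measure stability. The cause of the changes above was not tested.

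The planned count of TTCG at summits was not run, since it needs a genome of the build. No paired analysis was possible because the peak lists form a single group and no result comes from a test. At 16 or 17 fragments per median summit, counting error limits any comparison of single peaks.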
